A study of Homo sapiens with 2 samples.

Results

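The genes that encode the subunits of the 3 nuclear RNA polymerases were examined for binding of NRF-1 at their promoters. Members were all protein-coding genes of GENCODE release 44 (coordinates on GRCh37, also called hg19) whose symbol begins with POLR1, POLR2 or POLR3, which gave 33 of 19794 coding genes. They comprised 8 POLR1 genes, 15 POLR2 genes and 10 POLR3 genes. NRF-1 had been profiled by chromatin immunoprecipitation with Tn5 tagmentation and paired-end sequencing (ChIPmentation) in cells of the established glioblastoma line U251, of human origin, that received either a control siRNA (siControl) or an siRNA against the cofactor AATF (siAATF). Both siRNAs were introduced by transient transfection. The design text of the series names U138 cells, whereas the sample labels name U251, and the labels were followed. The paper also names U251 for its NRF-1 sequencing experiment. There was 1 peak list per condition, so differences between the lists carry no replicate error, and no test between conditions was made. Neither the identity of the cells nor the level of AATF can be checked from a peak list.

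Polymerase I transcribes the large ribosomal RNA precursor, polymerase II transcribes messenger RNAs, and polymerase III transcribes transfer RNAs and 5S ribosomal RNA. Each enzyme has its own large catalytic subunits, its own stalk and further specific subunits, while several small subunits are shared between the enzymes. NRF-1 binds as a dimer to a GC-rich palindrome close to the transcription starts of many housekeeping genes, and is best known for nuclear genes of mitochondrial respiration. AATF, also called Che-1, was originally isolated as a binding partner of the polymerase II subunit RPB11, the product of POLR2J.

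The NRF-1 word was searched in the promoter peaks as GCGCANGCGC on both strands, which reads GCGCNTGCGC on the other strand and includes the perfect palindrome GCGCATGCGC. The windows given here are that of POLR2J, those of the largest subunits of polymerases I and II and those of the 4 members with the perfect palindrome. Each is 30 bases of the GRCh37 genome on the strand of the gene, 5′ to 3′, with the 10-base word in capitals. The POLR2J window was identical in POLR2J2 and POLR2J3.
POLR2J, chr7:102119442-102119471, minus strand: gggttttctcGCGCCTGCGCaagatcctcc
POLR2A, chr17:7388046-7388075, plus strand: agtgaggtttGCGCCTGCGCagcgcgcctg
POLR1A, chr2:86332994-86333023, minus strand: ccgcttccgcGCGCAAGCGCacgttgaatc
POLR2I, chr19:36606098-36606127, minus strand: gggtaaactcGCGCATGCGCactggccttc
POLR3B, chr12:106751821-106751850, plus strand: ggcggtttgtGCGCATGCGCcgggcttctg
POLR2F, chr22:38349621-38349650, plus strand: acaccagtcaGCGCATGCGCactttccccg
POLR2H, chr3:184081128-184081157, plus strand: gcttgtttgtGCGCATGCGCcactctcgtc

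The word of POLR1A spanned the canonical transcription start. In POLR2A the word lay 375.5 bp downstream of the start, in the untranslated part of exon 1. The POLR3B word lay in an intron of the canonical transcript, 309.5 bp from the start. In POLR2J, POLR2I and POLR2F the words shown lay upstream, at −87.5, −335.5 and −70.5 bp from the canonical start. The POLR2H word lay 1644.5 bp downstream, in an untranslated part of exon 2 of the canonical transcript and at alternative starts of the gene.

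Promoters spanned 1 kb before and after every start of a protein-coding transcript. Peak strength is given as the −log10 q written by the peak caller, a measure of how far the signal stood above the local background, and as a percentile rank of fold enrichment in its own list, where 100 is the strongest peak and 0 the weakest. MACS2 reports the −log10 q and the fold enrichment as averages over a broad region, and the ranks were computed from the latter. A gene was given the values of its promoter peak with the highest fold enrichment, called the strongest. A promoter peak of NRF-1 was present for 30 of the 33 polymerase genes (90.9%, exact 95% interval 75.7 to 98.1%) in the siControl list, where 61.1% of all coding genes had one. In siAATF the count was again 30 of 33, beside 60.7% of all coding genes. The same 30 members had a peak in both lists, whereas 59.5% of coding genes had one in both. No member had a peak in 1 list only (0 of 33), a pattern seen in 2.79% of coding genes. With the peak required to reach a −log10 q of 5, 26 members remained in siControl and 27 in siAATF, and the share of all coding genes was 51.4% in each list. The intervals cover counting error alone. The promoters of the members held a median of 28 CpG steps in the 300 bases around the start, against 23 over all coding genes, and the part of promoter composition in these shares was not tested.

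All POLR2 genes had a promoter peak in both lists (15 of 15, interval 78.2 to 100%). Among the POLR1 genes it was 7 of 8 (87.5%, 47.3 to 99.7%), and among the POLR3 genes 8 of 10 (80%, 44.4 to 97.5%). These intervals overlap, and the sets are too small to order the 3 classes. The POLR2 genes include POLR2J, POLR2J2 and POLR2J3, which have closely similar promoters and are not independent, here and in the counts of all members. Counted by enzyme, with shared subunits placed in each enzyme that contains them, POLR2M kept with polymerase II and CRCP, whose symbol the rule does not match, left out, 12 of 13 genes of polymerase I, 15 of 15 of polymerase II and 15 of 17 of polymerase III had a peak. The median −log10 q over the members was 20.4 in siControl and 19.1 in siAATF, against 17.997 and 17.4 over all promoter peaks. The median rank by fold enrichment was 61.7 and 62.2, against 63.4 and 64.4 over all promoter peaks, so the typical member ranked close to the typical gene with a peak. Within the classes the median −log10 q was 27.1 and 28.0 for POLR2 genes, 14.7 and 14.9 for POLR3 genes, and 8.51 and 12.5 for POLR1 genes. The median rank by fold enrichment did not keep that order. It was 65.0 in siControl and 56.7 in siAATF for POLR2 genes. For POLR3 genes it was 61.3 and 61.5, and for POLR1 genes 60.3 and 62.6.

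**Figure D1:**
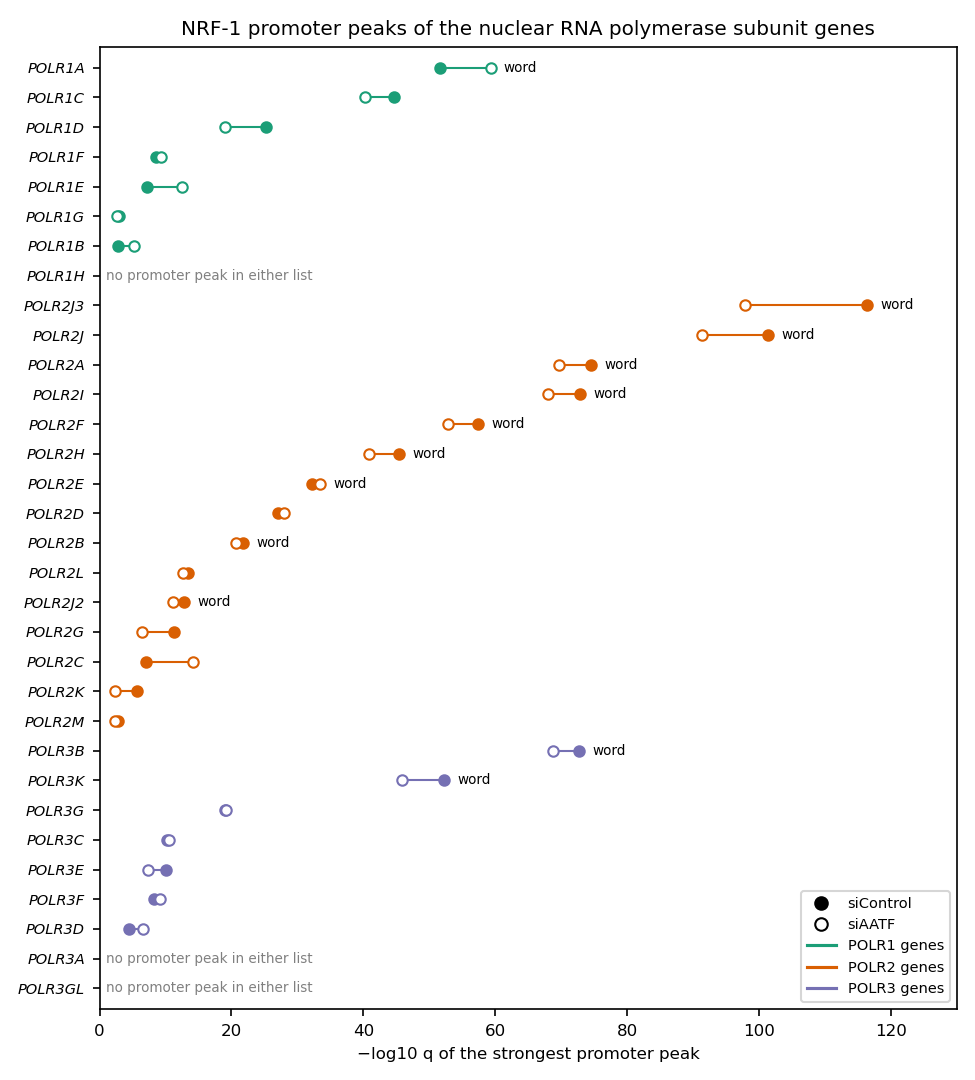
The −log10 q of the strongest NRF-1 promoter peak (x axis) is plotted for the polymerase genes reported individually (y axis), with filled points for siControl and open points for siAATF; colours mark POLR1, POLR2 and POLR3 genes, and "word" marks a peak with the NRF-1 word. Values run from 2.75 to 116 in siControl, and POLR1H, POLR3A and POLR3GL have no promoter peak in either list. The highest −log10 q of any peak is 116 in siControl and 104 in siAATF, and values are not scaled between the lists.

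The largest subunits, which form the active site together with the second largest, were not alike. POLR2A (ENSG00000181222, chromosome 17) encodes RPB1, the subunit with the C-terminal repeat domain. Its peak, chr17:7387202-7388551 in siControl, also held the start of ZBTB4 in both lists. It had a −log10 q of 74.5 in siControl and 69.7 in siAATF. The fold enrichment of that wide region, 6.13 and 5.98, ranked only at 54.5 and 56.7. POLR1A (ENSG00000068654, chromosome 2) encodes the corresponding subunit of polymerase I. Its peak, chr2:86332528-86333684, also held the start of PTCD3 and had a −log10 q of 51.6 in siControl and 59.3 in siAATF, with ranks of 73.9 and 88.0. POLR3A (ENSG00000148606, chromosome 10), the corresponding gene of polymerase III, had no promoter peak in either list. Its nearest peak was 4.08 kb from a start in siControl (chr10:79793354-79793949) and 4.05 kb in siAATF.

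The second largest subunits complete the catalytic cleft. POLR3B (ENSG00000013503) had a −log10 q of 72.7 in siControl and 68.7 in siAATF at chr12:106751330-106752322, with the perfect palindrome. POLR2B (ENSG00000047315) had 21.7 and 20.6 at chr4:57843469-57844020. That peak lay over the start of NOA1, upstream of the canonical POLR2B start. A weaker peak with the NRF-1 word stood over the canonical start itself (−log10 q 6.98 in siControl and 6.31 in siAATF). POLR1B (ENSG00000125630) was among the weakest, with 2.75 and 5.20 at chr2:113299757-113300294. Of these 3 genes, that of polymerase III had the highest −log10 q in both lists, whereas among the largest subunits it was the one without a peak.

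Of the 5 small subunits present in all 3 enzymes, each had a peak in both lists. POLR2F, which encodes RPB6, had a −log10 q of 57.4 in siControl and 52.8 in siAATF at chr22:38349220-38350167, a peak that held 2 NRF-1 words and the start of C22orf23. POLR2H, which encodes RPB8, had 45.5 and 40.8 at chr3:184080595-184081588. A weaker POLR2H peak over the canonical start, shared with CLCN2, reached 19.5 and 19.2 and had no word. POLR2E, which encodes RPB5, had 32.1 and 33.5 at chr19:1094967-1095696, with a word at −5.5 bp from the start. The remaining pair, POLR2L and POLR2K, encode small zinc-binding subunits, had no word and were weaker. POLR2L had a −log10 q of 13.4 and 12.7, and POLR2K had 5.61 and 2.35. The POLR2L peak also held the start of TSPAN4. Both subunits shared by polymerases I and III, which form a heterodimer that anchors assembly, had peaks without the word. Their −log10 q was above the median over all promoter peaks in both lists. POLR1C reached 44.7 in siControl and 40.2 in siAATF at chr6:43484387-43485167, a peak over the start of YIPF3, with a rank of 95.3 in siControl. POLR1D reached 25.2 and 18.99, but its siAATF rank by fold enrichment, 63.2, was below the median of 64.4 over all promoter peaks.

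Among subunits of polymerase II alone, POLR2I, which encodes RPB9, had a −log10 q of 72.9 in siControl and 68.0 in siAATF at chr19:36605337-36606722, over the start of TBCB. The stalk genes POLR2D and POLR2G differed. POLR2D (RPB4) had 27.1 and 28.0 and a rank of 94.9 and 96.7, whereas POLR2G (RPB7) had 11.2 and 6.51. POLR2C, which encodes RPB3, had 7.06 and 14.1. POLR2M, which encodes a regulatory protein that associates with the enzyme and is not part of its core, was among the 3 lowest members by rank in siControl, with a −log10 q of 2.79 and 2.34 at chr15:57998750-57999138.

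The 3 remaining specific subunits of polymerase I with a peak had weak ones. POLR1F, a stalk subunit, had a −log10 q of 8.51 in siControl and 9.29 in siAATF. POLR1E and POLR1G encode the partners of a heterodimer that acts in initiation and elongation. POLR1E had 7.13 and 12.5, and POLR1G, the member with the lowest rank in siControl (14.0), had 2.93 and 2.71. The siControl peak of POLR1G, chr19:45909053-45909386, stopped short of the canonical start. The siAATF peak, chr19:45908288-45909985, reached across it and also held the start of PPP1R13L. With promoters of 500 bp on either side, POLR1G would therefore have had a peak in siAATF only, and the siControl count would have been 29 of 33.

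POLR1H (ENSG00000066379), which encodes the zinc ribbon subunit that acts in transcript cleavage, had no promoter peak in either list, and its nearest peak was 1677.5 kb away in siControl. The canonical start of POLR1H, at position 30029042 of chromosome 6, lies in a stretch that was empty throughout. Between 29 and 33 Mb, bounds chosen after the values had been seen, a promoter peak was listed for 0 of 151 coding genes in either list, and no peak of any kind was listed. The lists held 16 and 18 peaks on alternative haplotype sequences of chromosome 6, so the reference used for alignment contained extra copies of part of that chromosome. Their part in the missing POLR1H peak was not tested. POLR1H thus shared its missing peak with every coding gene of the stretch.

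In polymerase III, POLR3K, which acts in RNA cleavage and termination, had a −log10 q of 52.2 in siControl and 45.8 in siAATF at chr16:102970-104288, over the start of SNRNP25. POLR3C, POLR3F and either POLR3G or POLR3GL form a trimer used in promoter opening. POLR3C had 10.2 and 10.6, with the start of RNF115 in its peak. POLR3F had 8.30 and 9.22, with the start of DZANK1 in its peak. The paralogues POLR3G and POLR3GL encode alternative forms of the third trimer subunit, the former associated with undifferentiated and proliferating cells. POLR3G (ENSG00000113356) had a −log10 q of 19.1 in siControl and 19.2 in siAATF at chr5:89769739-89770808, over the start of MBLAC2. POLR3GL (ENSG00000121851, chromosome 1) had no promoter peak in either list, and its nearest peak was 2.04 kb away in siControl and 6.44 kb away in siAATF. POLR3D and POLR3E encode a heterodimer related to initiation factors. POLR3E had 10.02 and 7.32, and POLR3D had 4.54 and 6.58.

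The strongest peak covered the canonical start in 27 of the 30 members with a peak in siControl and 28 in siAATF. In siControl the exceptions were POLR1G, POLR2B and POLR2H, and in siAATF POLR2B and POLR2H. The midpoint of the peak was within 200 bp of the start in 21 members in siControl and 20 in siAATF. The corresponding shares over all coding genes with a promoter peak are not given here, so these counts do not set the members apart. The peak held the start of another coding gene in 11 of 30 members in siControl and 12 in siAATF, against 21.9% and 22.4% of all coding genes with a promoter peak. A coding start on the opposite strand lay within 1 kb of the canonical start in 13 of the 33, against 13% of all coding genes, and such shared peaks cannot be assigned to 1 gene of the pair. Paired peaks coincided closely, since the overlap took a median of 99.2% of the length in siControl and 95.4% in siAATF, with POLR1G lowest at 19.7% of its siAATF peak.

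**Figure D2:**
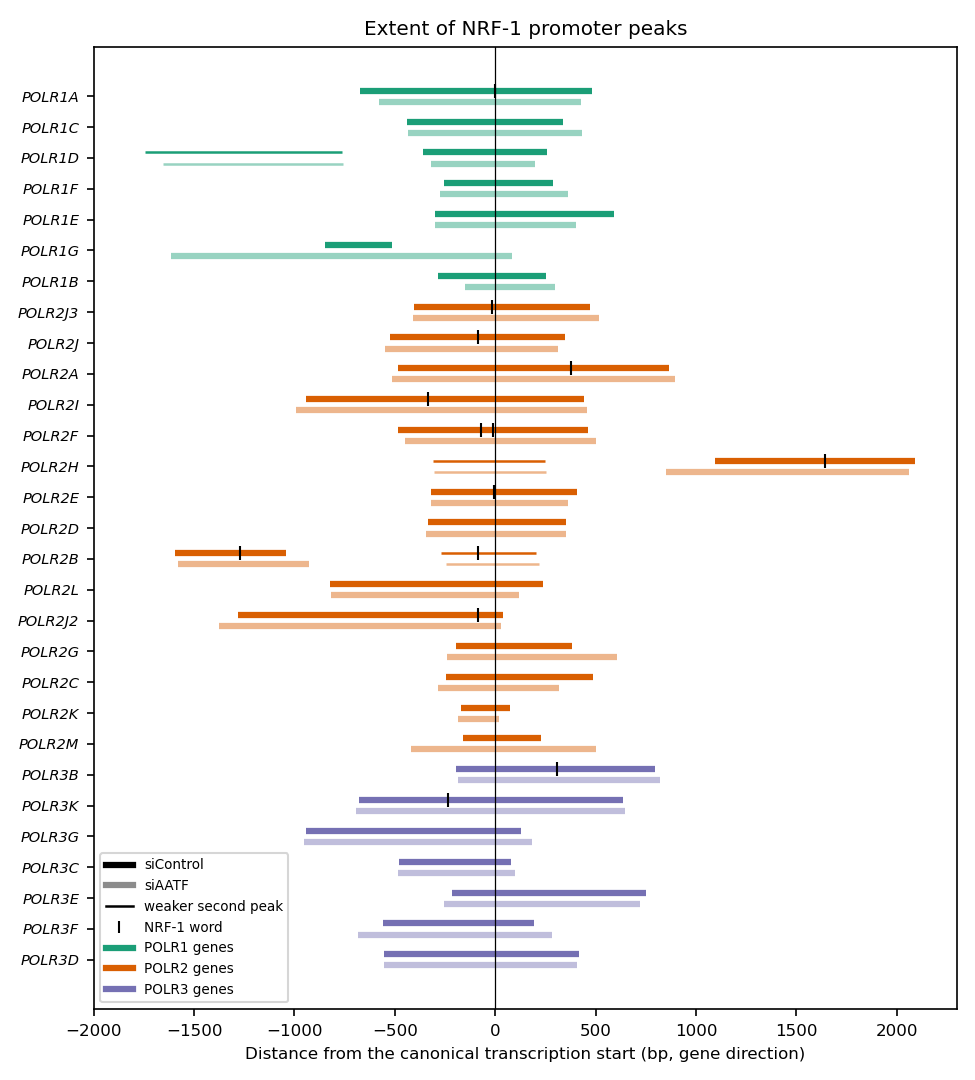
Extent of the promoter peaks (bars) of the polymerase genes reported individually, relative to the canonical transcription start (x axis, bp in gene direction), with siControl in full colour above siAATF in pale colour and black ticks at NRF-1 words; thin bars are weaker additional peaks, and those more than 3 kb upstream are not drawn. Most bars cover the start, and the midpoints of the strongest peaks of POLR2H and POLR2B lie over 1 kb from it in both lists.

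The NRF-1 word stood in the strongest promoter peak of 13 of 30 members (43.3%, interval 25.5 to 62.6%) in each list. Over all coding genes with a promoter peak the share was 19% in siControl and 19.1% in siAATF. A control word of the same base composition, GCCGANCGGC, was in 0 of 30 strongest member peaks in either list, beside 2.89% and 2.82% of all promoter peaks. A weaker second promoter peak of POLR1D held the control word in both lists. The 13 members included POLR1A, POLR2A, POLR2B, POLR2E, POLR2F, POLR2I and POLR3K, beside the POLR2J copies. They made up 9 of 15 POLR2 genes (60%, 32.3 to 83.7%), 3 of 8 POLR3 genes with a peak (37.5%, 8.52 to 75.5%) and 1 of 7 POLR1 genes with a peak (14.3%, 0.361 to 57.9%), and these intervals overlap. The 9 POLR2 genes include the 3 POLR2J copies with identical word windows, which are not independent. The peaks of the 13 members held 14 words, the same 14 in both lists. Of these, 11 lay within 100 bp of the midpoint of the siControl peak and 10 within 100 bp of the midpoint of the siAATF peak. The share for words in all promoter peaks is not given here, so this placing does not set the members apart. In the fixed 300-base promoter window, which does not depend on peak width, 9 of 33 members (27.3%) held the word, against 8.45% of coding genes. These 9 members also include the 3 POLR2J copies.

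Members with the word had the stronger peaks by median −log10 q. In siControl their median −log10 q was 57.4, from 12.9 to 116, against 8.51, from 2.75 to 44.7, in the 17 members without it. In siAATF it was 59.3, from 11.2 to 97.9, against 9.29, from 2.34 to 40.2. The ranges overlap, since POLR2J2, POLR2B and POLR2E with the word lay below POLR1C without it. Over all coding genes the corresponding medians were 68.2 and 13.1 in siControl, and 61.7 and 12.8 in siAATF, so the members followed the split seen in all promoter peaks. Of the 11 members with a −log10 q of at least 40 in siControl, 10 held the word, POLR1C being the exception, where 57.2% of all coding genes at that strength held it. Peaks with the word were also wider, with a median of 993 bp against 690 bp in siControl, and a wider peak has more room for a match. By fold enrichment in siControl the medians were 7.54 with the word and 5.87 without it. The ranges, 5.65 to 9.86 and 3.84 to 9.50, largely overlapped.

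**Figure D3:**
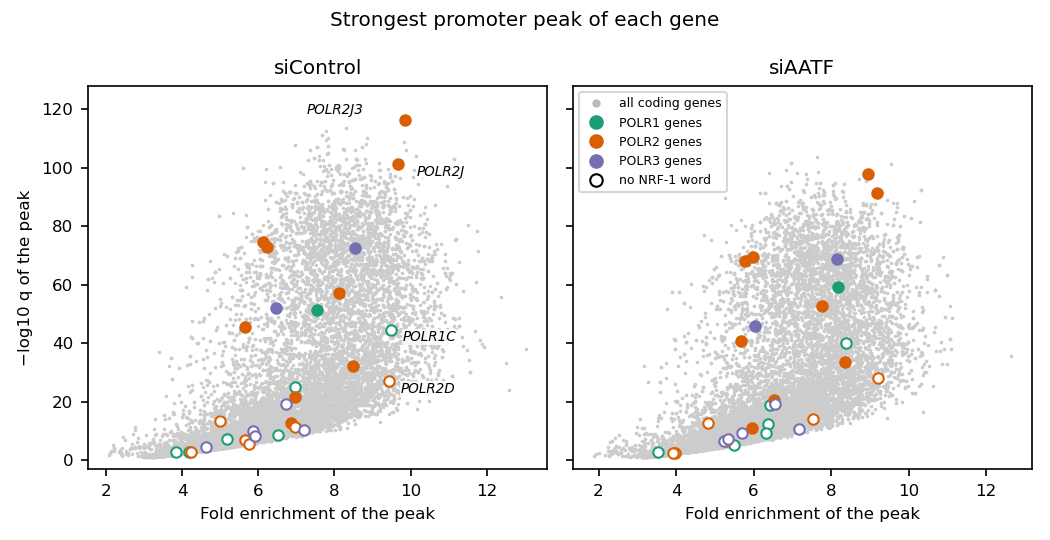
Fold enrichment (x axis) against −log10 q (y axis) of the strongest promoter peak of each coding gene (grey) and of the polymerase genes (colours), in siControl on the left and siAATF on the right; filled points hold the NRF-1 word and open points do not. POLR2J3 and POLR2J stand at the top of the POLR2 genes at 116 and 101 in siControl, and POLR1C and POLR2D are high in fold enrichment without the word.

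The strongest peaks of the family were those of POLR2J and its paralogue POLR2J3 on chromosome 7. The POLR2J3 peak (chr7:102212627-102213506) had the highest −log10 q of the whole siControl list, 116, and stood at position 9 of the siAATF list with 97.9. POLR2J itself (chr7:102119022-102119891) had 101 and 91.3, which placed it at positions 37 and 40. Their ranks by fold enrichment in siControl, 97.2 for POLR2J3 and 96.3 for POLR2J, were the highest of the members, ahead of POLR1C. In siAATF the order differed, with POLR2D at 96.7, POLR2J at 96.6 and POLR2J3 at 95.3. The peak of the third copy, POLR2J2 (chr7:102312070-102313392), had only 12.9 and 11.2. All 3 promoters carry the same 30-base window printed above. In POLR2J the word lay at the midpoint of the siControl peak, whereas in POLR2J2 it lay 533.5 bp downstream of the midpoint, near the edge of the peak.

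The 30-base window has 4 exact copies in the genome. The other copy, at chr7:44058847-44058876 near the start of the non-coding gene POLR2J4, lay in a peak with a −log10 q of 72.3 in siControl and 64.8 in siAATF. Around the word, the promoters were 95.1% identical between POLR2J and POLR2J3, 90.3% between POLR2J and POLR2J2 and 92.6% between POLR2J2 and POLR2J3, with identical runs of up to 86 bases. With copies this alike, the division of signal between the 3 promoters is given as uncertain, and how reads were assigned between them was not tested. Every word window of the other members occurred once in the genome.

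Between the lists, the rank of the polymerase promoter peaks by fold enrichment differed little for most members. The median difference, siAATF minus siControl, was 0.47 points (order-statistic interval −2.54 to 2.11), beside 0.106 over all coding genes. The rank was lower in siAATF for 14 of 30 members and higher for 16, where 49.2% of coding genes were lower. The difference exceeded 20 points in 5 of 30 members (16.7%, interval 5.64 to 34.7%), against 6.61% of coding genes, a share that lies inside the interval. Of those 5, 3 ranked higher and 2 lower in siAATF. The rank of POLR2C was 31.9 points higher in siAATF, with a fold enrichment of 5.65 in siControl and 7.52 in siAATF (chr16:57496346-57497078 in siControl). That of POLR1B was 27.1 points higher, with 4.18 and 5.49, and that of POLR1E was 22.3 points higher, with 5.18 and 6.37 (chr9:37485645-37486537). Lower ranks in siAATF were found for POLR2K, with a difference of −31.3 points and a fold enrichment of 5.77 and 3.96, and for POLR2G (chr11:62528858-62529433), with −21.3 points and 6.97 and 5.29. These are differences between 2 lists with no replicate check.

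All of the 5 were weak peaks without the NRF-1 word, with a −log10 q of 2.75 to 11.2 in siControl. Among the members, 0 of 13 with the word and 5 of 17 without it differed by over 20 points. Over all coding genes the shares were 1.004% and 7.96%, so larger rank differences were more frequent among peaks without the word in the lists as a whole. Those peaks were also weaker, with a median siControl −log10 q of 13.1 against 68.2, and the word and strength were not separated. Ranked by −log10 q instead, only POLR2K differed by over 20 points (1 of 30), where it dropped by 23.8, beside 2.32% of coding genes. The 3 polymerases did not separate: the median difference by fold enrichment was 1.43 points for POLR1, −0.41 for POLR2 and 0.84 for POLR3 genes. The peak of POLR2J, the gene of the AATF partner RPB11, differed by 0.24 points in rank.

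**Figure D4:**
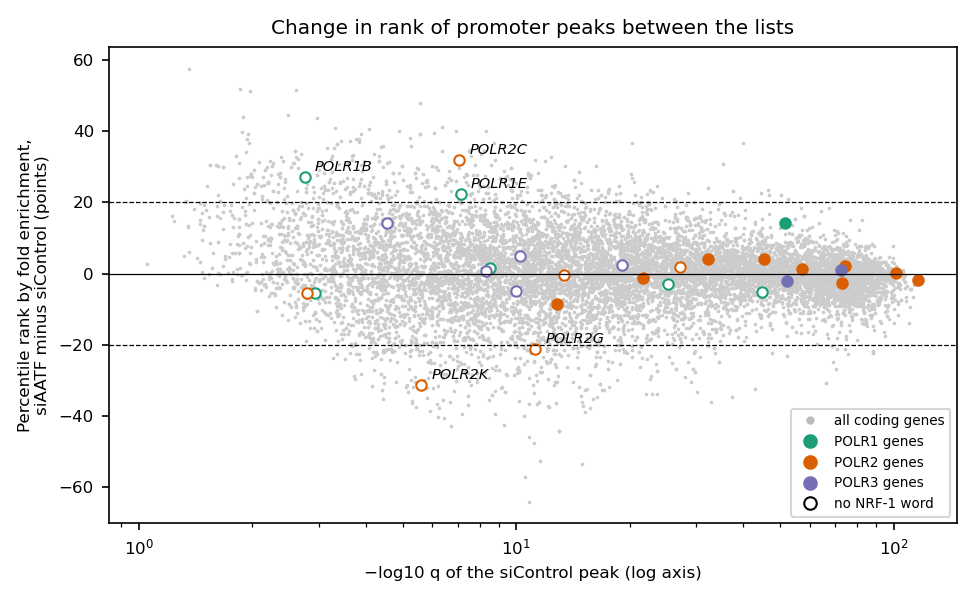
Difference in percentile rank by fold enrichment (y axis, siAATF minus siControl, points) against the −log10 q of the siControl peak (x axis, log scale) for all coding genes with paired promoter peaks (grey) and for the polymerase genes (colours; filled with the NRF-1 word, open without). The 5 named genes lie beyond the dashed lines at 20 points, all at a −log10 q under 12, and the members with stronger peaks lie between the lines.

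Other genes of the transcription machinery were set beside the members, without a test of the difference. Of 53 genes for general factors and assembly proteins, 49 had a promoter peak (92.5%, interval 81.8 to 97.9%) in each list, against 90.9% of the members and 61.1% of coding genes in siControl. The NRF-1 word was in 13 of those 49 peaks (26.5%, interval 14.9 to 41.1%), against 43.3% for the members and 19% for all promoter peaks in siControl. All 16 polymerase III factors had a peak, with GTF3C1, a subunit of the factor that binds inside transfer RNA genes, at a −log10 q of 96.2 in siControl and 79.4 in siAATF. Polymerase II factors had one in 18 of 21 genes, GTF2H2, GTF2H4 and MNAT1 being the exceptions. GTF2H4 lies in the same empty stretch of chromosome 6 as POLR1H. Polymerase I factors had one in 6 of 7, with TTF1, the termination factor, at none. All 9 assembly factors had one. URI1, a chaperone partner of the shared subunit RPB5, reached 99.6 and 90.0. CRCP, a polymerase III stalk subunit whose symbol does not match the rule, had 4.88 and 5.79. POLRMT, the mitochondrial polymerase, had 79.0 and 67.1 with the word, within the range of the strongest nuclear polymerase genes.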

How the data were processed

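NRF-1 peaks were analysed from 1 siControl and 1 siAATF list. Per the study's methods, the authors aligned reads to hg19 with Bowtie2 and called broad peaks with MACS2 in a pipeline built for ATAC-seq, with defaults. For the sequencing experiment, neither an input nor an IgG library is mentioned in the methods, and whether the described duplicates were pooled was not stated. The lists hold 18014 and 18454 peaks. Peak positions, the fold enrichment (a ratio to the local background), and the −log10 p and −log10 q were deposited by the authors. The score deposited by the authors was not used. Fold enrichment is relative to the background of its own library, so ranks rather than values were compared between lists. The −log10 q values were not scaled between the lists and are given for each list separately. The number of reads was not given in the sources used here, so depth is unknown.

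Genes and starts came from GENCODE release 44 lifted to GRCh37, and sequence from the GRCh37 assembly. The strongest promoter peak of a gene was that with the highest fold enrichment, and peaks were paired between lists by overlap of at least 1 base. The word was matched exactly. Exact Clopper-Pearson 95% intervals, and order-statistic intervals for medians, cover counting error only. Genes are not replicates. Python 3.11.15, numpy 2.4.6, scipy 1.17.1, pandas 2.3.3, biopython 1.88 and matplotlib 3.10.9 were used. The assignment of peaks to promoters and the word search were tested on simulated data, and the other steps were not. The members and lists were chosen with earlier results of these data known. Positions and values were given for members without a peak, the 3 highest and lowest by siControl rank, those that differed by over 20 points, the largest subunits, the POLR2J and POLR3G paralogues and members with the word. Other members were given by their values. The individual results of 1 member are not reported here. Alternatives were promoter widths of 500 bp and 2 kb, canonical starts alone, a −log10 q of at least 5, the 10000 peaks of highest fold enrichment, ranking by −log10 q, classes by subunit composition, words within 100 bp of the peak midpoint, and the perfect palindrome or the control word in place of the NRF-1 word.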

Additional observations from a re-analysis of the deposited data

How the results depend on the processing

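Of 67 alternative values for 13 results, 59 stayed within the interval of the value reported, 8 moved and 0 reversed. Among the 10000 peaks of each list with the highest fold enrichment, a promoter peak was found for 72.7% of members (24 of 33) in siControl and also 72.7% in siAATF, against 44.2% and 43.6% of all coding genes. Where all peaks had to reach a −log10 q of 5, the median rank of the members was 49.3 in siControl and 44.97 in siAATF, since the ranks were then counted among fewer and stronger peaks. The perfect palindrome was in 13.3% of member peaks in both lists, against 3.89% and 3.96% of all promoter peaks, and the control word in 0%. Without POLR1H, an alternative chosen after seeing the data, 93.75% of members had a peak. Without POLR2J2 and POLR2J3, also chosen after seeing the data, 39.3% of member peaks held the NRF-1 word. No paired analysis was possible because each condition has 1 list, and no replicate could be left out. The depth of the libraries is unknown, so a missing peak at POLR3A or POLR3GL says only that none passed the threshold of the caller.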
